A study of Homo sapiens with 12 samples.

Results

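A set of 9 complement genes is described here, namely C3, C1R, C1S, CFI, CFB, SERPING1, CD46, CD55 and CD59, out of 33694 human genes listed per library. They were picked by symbol after C3, C1R and CFI had been seen to be higher in A375-BIR cells given dabrafenib than in A375-BIR cells given DMSO. That contrast is therefore a description with no test for all 9 genes, and no p-value is given for C3, C1R and CFI in any comparison that uses A375-BIR libraries. The cells are A375, an established human melanoma line with an activated BRAF kinase, and A375-BIR, which the labels name as its BRAF-inhibitor-resistant counterpart. The route to resistance was not given in the sources used here, nor was whether A375-BIR is a single clone. Both lines, kept in RPMI medium with serum, received either dabrafenib, a BRAF kinase inhibitor, at 200 nM or the solvent DMSO at 0.1%, for 48 h. Each of the 4 groups was labelled with 3 biological replicates. Of the A375 DMSO libraries only replicate 1 lists human genes. Those of replicates 2 and 3, labelled human, list mouse genes and entered no comparison, so A375 DMSO is a single library (n = 1, no SD). The name of its deposited counts also carries a different numeric stamp from the 9 libraries of the other groups. That stamp is called a run here, and whether it marks sequencing or a later step cannot be told from it. In comparisons with that library the run and the group cannot be told apart.

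Complement is a cascade of secreted proteases and their substrates that ends in cleavage of C3, coating of a surface with its fragments, and assembly of a membrane pore. The serine proteases C1R and C1S start the classical route as part of the C1 complex. Factor B, encoded by CFB, supplies the protease that cleaves C3 in the alternative route. SERPING1 encodes the C1 inhibitor, and CFI encodes factor I, which inactivates C3b and C4b. CD46 serves factor I as a cofactor at the cell surface, CD55 speeds the decay of the C3-cleaving enzymes and CD59 blocks the pore. The liver makes most of the circulating components, and other cells, tumour cells among them, can make them locally.

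Levels are 3′ tag read counts per 1000000 (CPM) of library totals scaled by the trimmed mean of M values (TMM). Human libraries held 198690 to 1999840 gene counts, with a median of 570083. With 0 counts in a group, a level could still be up to 1.88 CPM in A375 with DMSO, 2.70 in A375 with dabrafenib, 1.09 in A375-BIR with DMSO and 1.49 in A375-BIR with dabrafenib (3 counts over the group; counting error only). Mitochondrially encoded genes took 4.63% to 7.21% of gene counts in A375-BIR and 10.7% to 15.1% in A375. The melanocyte lineage genes MITF and SOX10 had counts in all 10 libraries, while MLANA held 1 count in all and TYR none in A375-BIR. The 8 melanocytic markers summed to 197 to 315 CPM in A375-BIR, to 1442 CPM in A375 with DMSO and to 2843 to 3376 CPM in A375 with dabrafenib. Of other cells that make complement, the hepatocyte markers ALB, APOA1, TTR and FGB had no count in any library, and the 6 hepatocyte markers summed to at most 5.04 CPM. The 8 leukocyte markers summed to 13.4 to 46.6 CPM, nearly all from CD68, with PTPRC at 1 count in all and CD3E and AIF1 at 0. The 6 fibroblast markers, each with few counts, summed to 14.4 CPM in A375 with DMSO, 11.3 to 28.9 with dabrafenib, 5.08 to 8.06 in A375-BIR with DMSO and 10.4 to 19.2 with dabrafenib. In A375-BIR this sum was higher in every dabrafenib library than in every DMSO library, as were C3, C1R, C1S, CFI and CFB, and its part in those values was not tested. In bulk samples, fewer cells of a type and less RNA per cell cannot be told apart.

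Among the secreted components, C3, the central protein of the cascade (ENSG00000125730, chromosome 19, 6677704 to 6730562, GRCh38), was near the limit of counting everywhere but in A375-BIR with dabrafenib. With DMSO the A375-BIR libraries stood at 6.78, 7.06 and 5.08 CPM, and with dabrafenib at 58.1, 29.7 and 54.3 CPM. Every dabrafenib library was above every DMSO library, and the fitted log2 change was 2.86 ± 0.37 (standard error). C3 overlaps GPR108 on the same strand, which held 141 counts in all. In A375 the DMSO library stood at 2.51 CPM (4 counts), and the dabrafenib libraries at 0, 0 and 5.64 CPM, the last from 1 count. With the drug, the summed level in A375-BIR was 54.7 times that in A375 (exact 95% counting interval 9.60 to 2183, from 99 counts against 1), and with DMSO 2.59 times (0.854 to 10.54). These intervals cover counting error only, not the spread between libraries, and are no test, as C3 was chosen on A375-BIR libraries. The drug response of A375 was not called (log2 -1.32 ± 1.40, adjusted p = 0.481). The order of mean levels put A375-BIR with dabrafenib first, then A375-BIR with DMSO, A375 with DMSO and A375 with dabrafenib, with the last 3 not separated beyond counting error or overlapping.

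CFB (ENSG00000243649, chromosome 6, 31945650 to 31952084) was the member with the largest ratio between the lines with DMSO. A375-BIR libraries stood at 27.1, 21.2 and 28.8 CPM with DMSO and at 81.9, 63.0 and 122 CPM with dabrafenib, whereas A375 held 1 count in its DMSO library (0.628 CPM) and 0 in each dabrafenib library. No library of the resistant line overlapped with any of the parental line. With DMSO the level in A375-BIR, 25.7 ± 4.0 CPM (SD, n = 3), was 40.3 times that in A375 (exact 95% counting interval 7.01 to 1616), and the difference was called (edgeR quasi-likelihood test, adjusted p = 1.65e-06). With dabrafenib A375-BIR stood at 88.8 ± 29.9 CPM (SD, n = 3). Its summed level was 31.1 times the floor in A375 (3 counts over the group), with an adjusted p = 6.98e-11. This comparison lies within the shared run. CFB passed the filter on low counts only through A375-BIR libraries, where it is high, so neither p is independent of the filter. Within A375-BIR the drug libraries were above the DMSO libraries (log2 1.75 ± 0.26, a description). CFB shares part of its span with C2 on the same strand, and C2 held 3 counts in all.

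C1R and C1S lie close to each other on chromosome 12. C1R (ENSG00000159403, 7080199 to 7092607) had levels of 7.63, 2.02 and 5.08 CPM in A375-BIR with DMSO and of 38.1, 33.2 and 25.9 CPM with dabrafenib, a fitted log2 change of 2.70 ± 0.40 (3.33 without A375-BIR DMSO replicate 1). A375 had 14.4 CPM with DMSO and 4.12, 6.70 and 5.64 CPM with dabrafenib. C1R was thus higher in drug-treated A375-BIR than in the other 7 libraries, and the parental DMSO library came next. The drug response of A375 had the opposite sign and was not called (log2 -1.39 ± 0.65, adjusted p = 0.0857, 6 counts against 23). With DMSO the fitted difference of A375-BIR from A375 was -1.49 ± 0.52, and -2.12 without that replicate. With dabrafenib it was 2.61 ± 0.52. C1R overlaps C1RL on the same strand, which held 89 counts in all.

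C1S (ENSG00000182326, 6988259 to 7071032) did not pass the filter on low counts and was not tested. It held 1 count over the A375-BIR DMSO libraries and 5, 9 and 6 counts with dabrafenib (4.76, 15.7 and 15.5 CPM), a ratio of 27.5 with an exact 95% counting interval of 4.40 to 1140. That interval covers counting error only and is no test, as this contrast chose the members. A375 held 3 counts with DMSO and 2, 2 and 1 with dabrafenib, a ratio of 2.39 (0.465 to 15.4). All 3 dabrafenib libraries of A375-BIR were above its DMSO libraries, but 1 of them, at 4.76 CPM, lay inside the range of A375 with dabrafenib (4.12 to 5.64 CPM). C1S overlaps EMG1 on the same strand and LPCAT3 on the other, which held 808 and 101 counts in all.

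**Figure D1:**
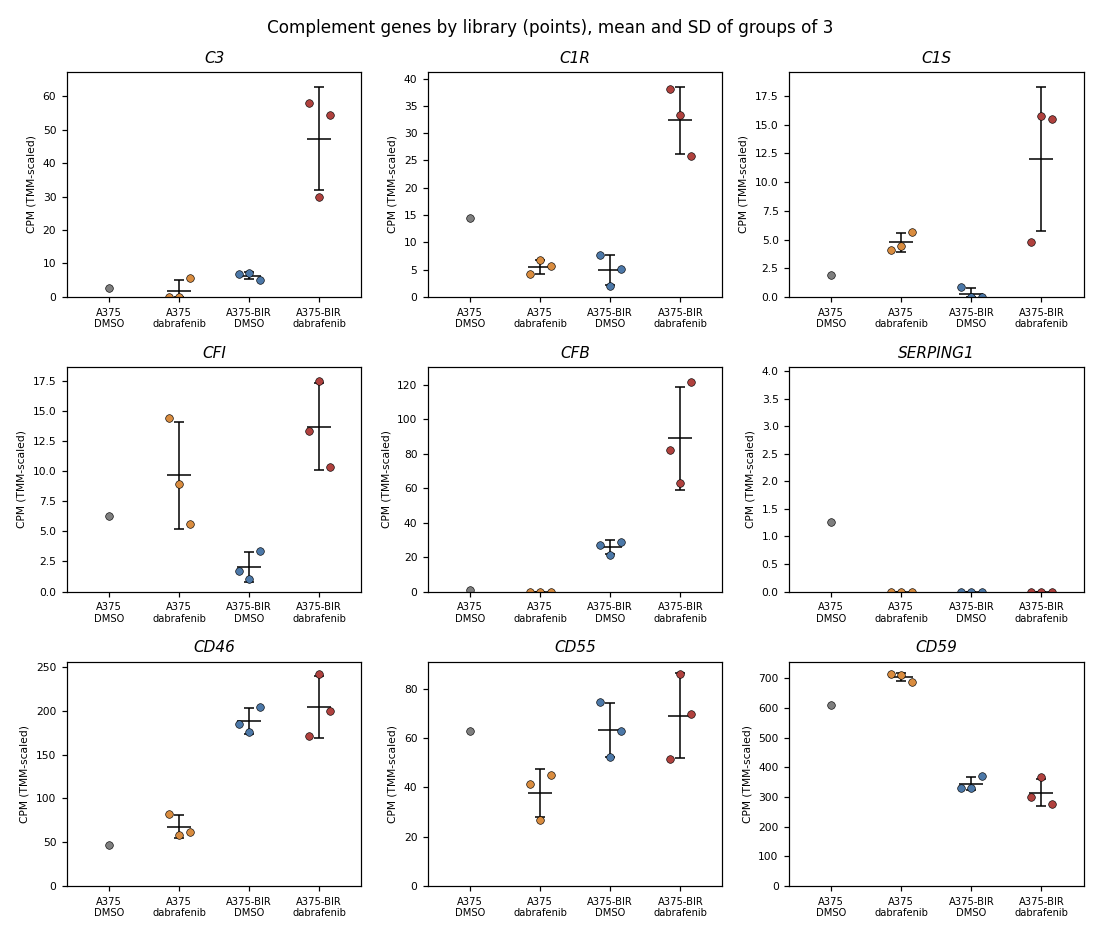
Level of each of the 9 genes in CPM (vertical axis, linear from 0, scaled per gene) in the 10 human libraries by group; points are libraries, horizontal bars the mean and whiskers the SD of the groups of 3, with the lower whisker stopped at 0. CFB reached 63.0 to 122 CPM in A375-BIR with dabrafenib and had 1 count over all 4 A375 libraries, while CD59 was lower in all 6 A375-BIR libraries than in the 4 A375 libraries.

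The soluble regulators differed from each other. CFI (ENSG00000205403, chromosome 4, 109740694 to 109802179) stood at 1.69, 1.01 and 3.39 CPM in A375-BIR with DMSO, from 5 counts, and at 13.3, 17.5 and 10.4 CPM with dabrafenib (log2 2.83 ± 0.64). In the parental line CFI stood at 6.28 CPM with DMSO and at 14.4, 8.93 and 5.64 CPM with dabrafenib. A375-BIR and A375 overlapped with the drug, with a fitted difference of 0.37 ± 0.57. In order of mean level A375-BIR with dabrafenib came first (13.7 ± 3.59 CPM; SD, n = 3), then A375 with dabrafenib (9.67 ± 4.44), A375 with DMSO, which lay inside the range of the group before it, and A375-BIR with DMSO (2.03 ± 1.22), which lay below all others. With DMSO the difference was -1.70 ± 0.83, and the drug response of A375 was not called (log2 0.76 ± 0.72, adjusted p = 0.428). SERPING1 (ENSG00000149131, chromosome 11, 57597387 to 57614853) held 2 counts in the A375 DMSO library and none in the other 9 libraries. It was not tested, and its level was not detectable above the floors given above.

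The membrane regulators were measured with more counts. CD46 and CD59 differed between the lines, in opposite directions, and for CD46, CD55 and CD59 alike the dabrafenib and DMSO libraries of A375-BIR overlapped. CD46 (ENSG00000117335, chromosome 1, 207752057 to 207795513) stood at 185, 175 and 205 CPM in A375-BIR with DMSO and at 171, 241 and 199 CPM with dabrafenib. A375 had 47.1 CPM with DMSO and 82.5, 58.0 and 62.1 CPM with dabrafenib. Every A375-BIR library was above every A375 library. CD46 was higher in A375-BIR by 1.99 ± 0.27 on the log2 scale with DMSO (adjusted p = 1.25e-07) and by 1.55 ± 0.22 with dabrafenib (adjusted p = 2.7e-07).

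CD59 (ENSG00000085063, chromosome 11, 33703010 to 33736491) was lower in the resistant line. It stood at 332, 332 and 371 CPM in A375-BIR with DMSO and at 302, 367 and 277 CPM with dabrafenib, against 608 CPM in A375 with DMSO and 716, 710 and 688 CPM with dabrafenib. No A375-BIR library reached the lowest A375 library. The log2 difference of A375-BIR from A375 was -0.82 ± 0.21 with DMSO (adjusted p = 0.00149) and -1.16 ± 0.17 with dabrafenib (adjusted p = 6.47e-07). Neither CD46 nor CD59 was called in the drug response of A375, where CD46 gave 0.55 ± 0.30 (adjusted p = 0.149) and CD59 0.21 ± 0.22 (adjusted p = 0.479).

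CD55 (ENSG00000196352, chromosome 1, 207321376 to 207386804) differed least between the lines with DMSO, with 74.6, 52.4 and 62.6 CPM in the resistant line and 62.8 CPM in the parental one (log2 0.02 ± 0.28, adjusted p = 0.963). With dabrafenib A375-BIR stood at 51.4, 85.7 and 69.9 CPM and A375 at 41.2, 26.8 and 45.1 CPM. The groups did not overlap, and CD55 was called higher in A375-BIR (0.88 ± 0.30, adjusted p = 0.0153). That call ended without A375 dabrafenib replicate 2 (0.65) or A375-BIR dabrafenib replicate 2 (0.66). The parental drug response was -0.79 ± 0.34 and missed the threshold (adjusted p = 0.0593). It was called lower in the fit restricted to the A375 libraries (-0.81) and without a filter on low counts (-0.87), and its adjusted p over 9 alternatives ran from 0.0105 to 0.283.

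In the resistant line 4 of the 7 members that could be fitted, C3, C1R, CFI and CFB, were past the threshold upward with dabrafenib and none downward, beside 1.36% of 10236 genes upward, 1.10% downward and 2.46% in either direction. The contrast chose the members, and nothing is read from the share. The groups of the same 4 did not overlap, nor did those of C1S, beside 9.07% of genes upward and 8.91% downward. The median log2 change over the 7 was 1.75, beside 0.02 over all genes. CD46 (0.11 ± 0.17), CD55 (0.07 ± 0.23) and CD59 (-0.12 ± 0.17) had overlapping groups.

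In A375, 0 of 7 members were called in either direction by edgeR, beside 38.6% of all genes tested (17.9% higher and 20.7% lower). C3, C1R, CFI and CFB passed the filter on low counts only through A375-BIR libraries. In A375 they held 1, 6, 12 and 0 counts with dabrafenib, against 4, 23, 10 and 1 with DMSO. With so few counts, the 0 of 7 does not show that these genes fail to respond. Of the 7, 2 lay above and 3 below the DMSO library in all 3 dabrafenib libraries, beside 34.0% and 38.0% of genes, large shares because 1 library stands against 3. C1R and CD55, both negative, had an unadjusted p under 0.05 (2 of 7), and DESeq2 called 0. The median over the 7 was -0.79 on the log2 scale, beside 0 over all genes, and includes C3 and CFB, fitted from 1 count or none with dabrafenib. The response rests on the single DMSO library from another run.

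Of the 4 members tested between the lines with DMSO, CFB and CD46 were higher in A375-BIR, CD59 was lower and CD55 was not called. Of all tested genes 51.8% were called, 25.1% higher and 26.7% lower, so such a call was common among genes. Groups did not overlap for 3 higher and 3 lower of the 7 fitted members, beside 41.8% and 42.6% of genes. With dabrafenib CFB, CD46 and CD55 were higher and CD59 was lower, beside 22.6% and 20.2% of all genes, or 42.7% in either direction. The calls of CFB, CD46 and CD59 held in both comparisons with mitochondrially encoded genes left out. They held with dabrafenib without each library in turn, and with DMSO without each A375-BIR library. The single A375 DMSO library could not be left out there. With dabrafenib the groups of 5 fitted members (C3, C1R, CFB, CD46 and CD55) did not overlap upward and those of CD59 downward, beside 25.5% and 22.7% of genes. The summed melanocytic markers were lower in A375-BIR in both comparisons and its mitochondrial share was lower, as given above; the part of the markers in these differences was not tested. The 2 line comparisons share no library with each other, whereas each shares A375-BIR libraries with the description of the drug response above.

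The fitted difference between the drug responses, A375-BIR minus A375, was 4.09 ± 0.75 for C1R and 4.18 ± 1.46 for C3 on the log2 scale, with 1 count of C3 in A375 with dabrafenib. Over all genes 22.6% were called in this difference, 12.7% higher and 9.87% lower. Without A375 dabrafenib replicate 3, which holds that count, the value of C3 was 6.97, and without replicate 1 it was 3.45. For CFI it was 2.07 ± 1.00, for CD55 0.86 ± 0.41, for CD46 -0.44 ± 0.34 and for CD59 -0.34 ± 0.28. No p is given, since the value contains the contrast that chose the genes. C1R was higher with the drug in 3 of 3 A375-BIR libraries and lower in 3 of 3 A375 libraries, relative to the DMSO mean of each line.

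**Figure D2:**
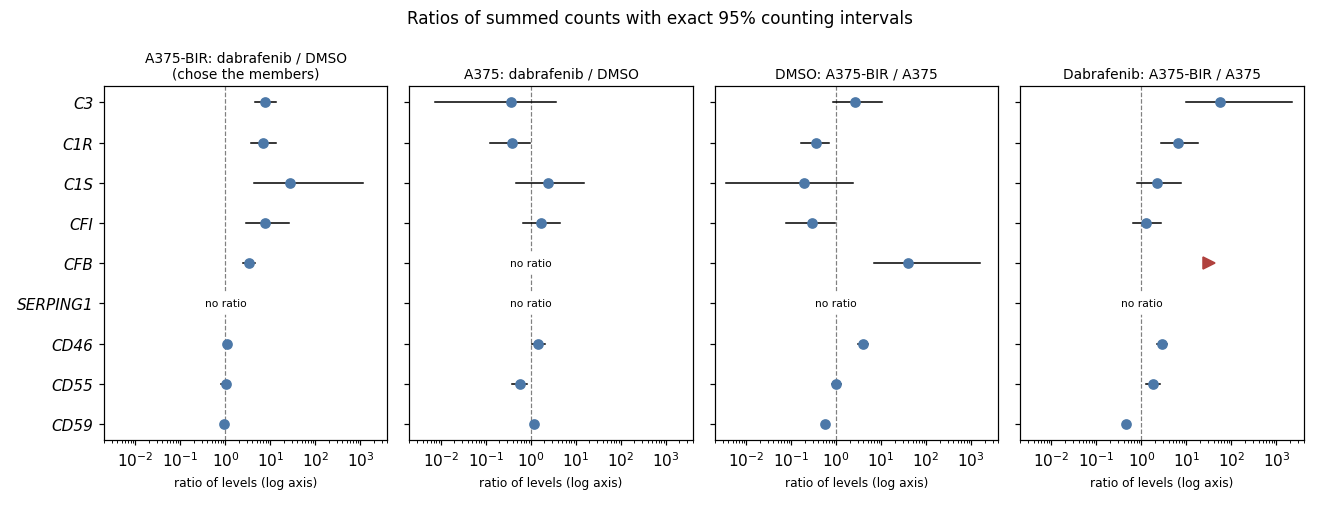
Ratio of levels between groups (horizontal log axis) for each gene in the 4 comparisons. Points are ratios of summed counts on TMM-scaled totals. Lines are exact 95% counting intervals, for counting error only, and are no test. The red triangle is the ratio of CFB to a floor of 3 counts in A375 with dabrafenib. No ratio is drawn where either group held 0 counts and the other held 3 or fewer. CD46 lies above 1 and CD59 below 1 in both comparisons of the lines.

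Promoter windows of 6 of the 9 genes were found in RefSeq (GRCh38.p14), 11 windows in all, each 250 bases before to 50 after a listed start site. The 250 bases upstream of the start site are printed for 3 genes that were higher in A375-BIR with dabrafenib. They lie at chr6:31945845-31946094 on the plus strand for CFB, at chr12:7092446-7092695 on the minus strand for the outer of 2 C1R start sites, and at chr4:109802000-109802249 on the minus strand for CFI. Sequences run 5′ to 3′, and capitals mark matches to the motifs searched.
CFB: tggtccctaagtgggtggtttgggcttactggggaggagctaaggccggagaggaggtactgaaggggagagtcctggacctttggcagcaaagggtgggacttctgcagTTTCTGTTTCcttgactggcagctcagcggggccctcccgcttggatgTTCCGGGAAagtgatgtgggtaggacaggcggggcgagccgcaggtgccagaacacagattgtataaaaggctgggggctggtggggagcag
C1R: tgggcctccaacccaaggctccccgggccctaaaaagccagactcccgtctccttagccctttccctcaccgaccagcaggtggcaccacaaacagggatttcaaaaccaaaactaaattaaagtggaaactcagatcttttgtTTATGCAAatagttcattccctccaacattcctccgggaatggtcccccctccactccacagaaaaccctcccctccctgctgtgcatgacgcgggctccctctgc
CFI: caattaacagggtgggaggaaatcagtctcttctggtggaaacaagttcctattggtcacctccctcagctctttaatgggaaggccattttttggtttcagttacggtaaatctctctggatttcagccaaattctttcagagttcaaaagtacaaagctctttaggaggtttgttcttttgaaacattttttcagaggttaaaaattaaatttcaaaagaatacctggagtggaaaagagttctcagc
The motifs, searched on both strands, were GGG and TTTCC set 2 bases apart for NF-kB, TTCNNNGAA for STAT factors, TTGCNNAA for C/EBP, 2 GAAA runs set 2 bases apart for interferon regulatory factors (IRF) and TGANTCA for AP-1. The CFB window held an IRF match whose first base lies 140 bases before the start site (printed on the opposite strand) and a STAT match 92 bases before it, and these do not overlap. Over 34796 RefSeq windows of that length 3.57% held the IRF letters, 7.67% the STAT letters, 1.91% the NF-kB letters and 7.73% the AP-1 letters. The outer C1R window held a C/EBP match 106 bases before the start site, as did 10.46% of all windows somewhere in their length. The other C1R window held a STAT match and a C/EBP match. The CFI window held none of the 5, and the CD46 and CD55 windows held none. Of the 4 CD59 windows, 2 that overlap each other held the same STAT match, and the other two held C/EBP or AP-1 matches. A match describes letters and not a bound site.

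Beyond these 9 genes, the cascade was sparsely represented. Of 53 other complement genes, 24 had no count in any of the 10 libraries, 15 had 1 to 9 counts in all and 14 had 10 or more; 8 were tested. C4A had 0 counts and C5 had 2, 1 in each DMSO group. In the drug response of A375-BIR 0 of the 8 were called by edgeR, 1 had an unadjusted p under 0.05 and DESeq2 called 0, with a median of 0.17. That gene was C1RL, a relative of C1R, which went from 10.4 ± 2.14 CPM with DMSO to 20.03 ± 2.28 CPM with dabrafenib (SD, n = 3), a log2 change of 0.90 ± 0.39 with adjusted p = 0.252.

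CLU, which encodes clusterin, an inhibitor of pore assembly, separated the lines. In A375-BIR its level was 101 ± 2.24 CPM with DMSO and 92.2 ± 10.6 CPM with dabrafenib (SD, n = 3), against 12.6 CPM in A375 with DMSO (n = 1) and 2.06, 11.2 and 0 CPM with dabrafenib. The differences were 2.99 ± 0.35 with DMSO (adjusted p = 8.06e-09) and 4.05 ± 0.42 with dabrafenib (adjusted p = 3.57e-10). CLU passed the filter on low counts only through A375-BIR libraries, where it is high, so neither p between the lines is independent of the filter. The response of A375-BIR was not called (-0.13 ± 0.20, adjusted p = 0.839).

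Of these 8 genes, 3 were called upward and 2 downward between the lines with DMSO (median 1.54), and 4 upward and none downward with dabrafenib (median 1.12). Over all genes 25.1% were called upward and 26.7% downward with DMSO, and 22.6% and 20.2% with dabrafenib, with medians of 0.01 and 0.04. Those higher with DMSO were CLU, ITGB2, a subunit of complement receptors 3 and 4 that had 0 counts in A375, and C1QBP, a C1q-binding protein (1.47 ± 0.46, adjusted p = 0.0105). Those higher with dabrafenib were CLU, ITGB2, COLEC12, a scavenger receptor of the collectin family, and C1RL (1.30 ± 0.52, adjusted p = 0.0408). The call of C1RL ended without A375 dabrafenib replicate 1 (0.85) or 2 (1.70) and without A375-BIR dabrafenib replicate 1 (1.19) or 3 (1.30), and without a filter on low counts (1.34), and was not made by DESeq2. With dabrafenib both COLEC12 and ITGB2 had 0 counts in A375. Their summed levels in A375-BIR were 5.34 and 3.50 times the A375 floor of 3 counts (adjusted p = 0.00147 and 0.00542). With DMSO, that of ITGB2 was 5.0 times the A375 floor (adjusted p = 0.00151). C1RL, COLEC12 and ITGB2 passed the filter on low counts only through A375-BIR dabrafenib libraries, of the line where they are higher. Their p-values between the lines are thus not independent of the filter.

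Lower in A375-BIR with DMSO were CFD, which encodes factor D, the protease that activates factor B, and ITGAX, the other subunit of complement receptor 4. CFD held 40 counts in the A375 DMSO library (25.1 CPM) and 6 counts over the other 9 libraries. ITGAX stood at 28.3 CPM in that library and at 0 to 5.25 CPM in the others. In the response of A375, CFD fell by 3.69 ± 0.92 (adjusted p = 0.00165, a call that DESeq2 did not make) and ITGAX fell by 3.31 ± 0.72 on the log2 scale (adjusted p = 0.000365). SUSD4, a complement-regulating membrane protein gene, was called higher there with 0 counts in A375 with DMSO and 0, 3 and 4 counts with dabrafenib (adjusted p = 0.0411), so that the groups overlapped. The high values of CFD and ITGAX belong to the 1 library of the other run, and the part of that run in them was not tested. CFD and ITGAX passed the filter on low counts only through that library, and SUSD4 only through an A375 dabrafenib library. Their p-values are thus not independent of the filter.

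**Figure D3:**
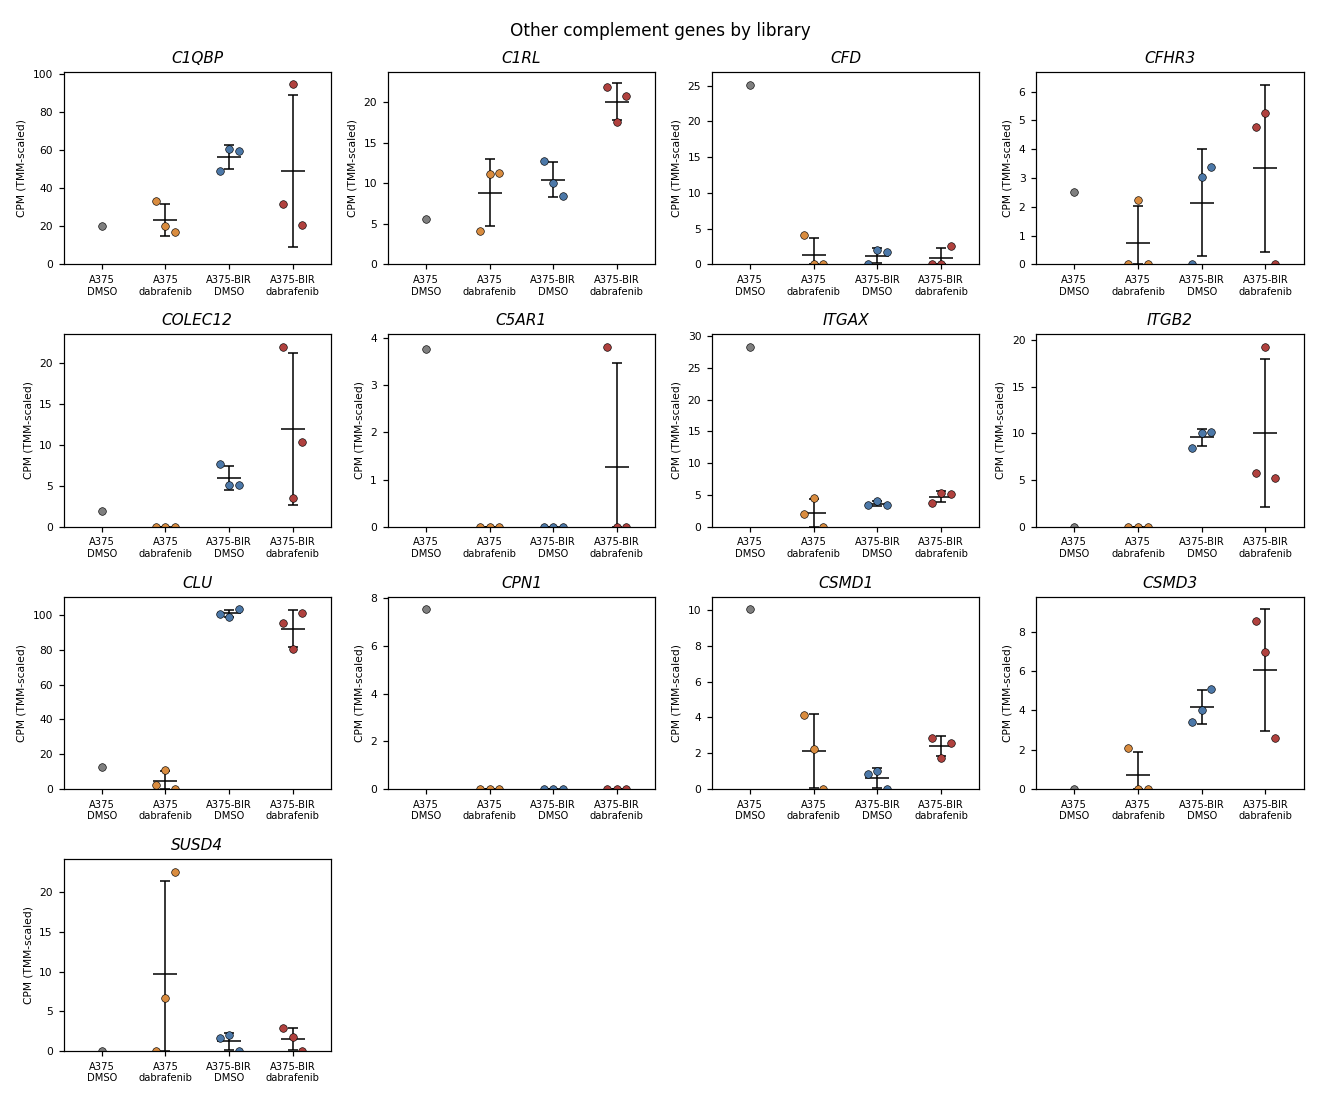
Level in CPM (vertical axis, linear from 0, scaled per gene) of other complement genes with at least 10 counts in all, in the 10 human libraries; points are libraries, horizontal bars the mean and whiskers the SD of groups of 3, with the lower whisker stopped at 0. CLU was seen mainly in A375-BIR, and CFD and ITGAX mainly in the A375 DMSO library.

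Cytokine and transcription factor genes that are known to act on complement genes were listed as well (30 genes, 21 tested). In A375-BIR with dabrafenib 3 of the 21 rose and none fell, with a median of 0.03, beside 1.36% and 1.10% of all genes and a median of 0.02. IL6, an inducer of acute-phase and complement genes, went from 4.24, 2.02 and 3.39 CPM to 21.9, 24.5 and 10.4 CPM (log2 2.56 ± 0.56, adjusted p = 0.0067). It passed the filter on low counts only through A375-BIR dabrafenib libraries, where it is high, so this p is not independent of the filter. IL6ST, the signalling subunit of its receptor, went from 101 ± 12.3 to 193 ± 29 CPM (SD, n = 3; 0.91 ± 0.18, adjusted p = 0.00164). NFKBIA, an inhibitor and target of NF-kB, went from 96.2 ± 3.37 to 164 ± 46.5 CPM (SD, n = 3; 0.75 ± 0.19, adjusted p = 0.0194). The call of IL6 ended without A375-BIR DMSO replicate 2 (2.29) or dabrafenib replicate 1 (2.45), and that of NFKBIA without any DMSO replicate (0.74 to 0.78) or without dabrafenib replicate 2 (0.49) or with only the libraries compared (0.77). DESeq2 called neither.

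No count of IL6 was found in the 4 A375 libraries. With dabrafenib the summed level of IL6 in A375-BIR was 7.55 times the A375 floor of 3 counts (adjusted p = 9.82e-05, with the same limit from the filter). STAT3, through which IL6 signals, was lower in A375-BIR than in A375 with DMSO (-0.90 ± 0.24, adjusted p = 0.0017) and with dabrafenib (-0.95 ± 0.21, adjusted p = 0.000261). So was IL6R, the ligand-binding receptor subunit (-2.02 ± 0.30 and -2.77 ± 0.28, adjusted p = 8.9e-07 and 4.18e-10). OSMR, the receptor for oncostatin M, was higher (2.92 ± 0.42 and 2.33 ± 0.41, adjusted p = 5.74e-07 and 1.64e-05), as was NR3C1, the glucocorticoid receptor (1.38 ± 0.24 and 0.94 ± 0.19, adjusted p = 1.38e-05 and 0.00012). JUN was higher in A375-BIR with DMSO (1.39 ± 0.26, adjusted p = 3.25e-05) and lower with dabrafenib (-1.37 ± 0.18, adjusted p = 6.94e-08). Of the 21 tested, 7 were called upward and 3 downward between the lines with DMSO (median 0.41), and 9 upward and 5 downward with dabrafenib (median 0.46). Over all genes 51.8% were called in either direction with DMSO and 42.7% with dabrafenib.

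In the drug response of A375-BIR, STAT3 (-0.19 ± 0.20), IRF1 (0.30 ± 0.25), NFKB1 (0.70 ± 0.30), CEBPB (0.38 ± 0.21) and CEBPD (0.58 ± 0.34) were not called. In A375, 7 of the 21 rose and 4 fell, beside 17.9% and 20.7% of all genes. Among the 7, IL6R (0.70 ± 0.29, adjusted p = 0.0491) lost its call in 8 alternatives. CEBPD rose from 10.7 CPM (n = 1) to 64.8 ± 12.3 CPM (SD, n = 3), and CEBPB from 44.6 CPM to 110 ± 7.73 CPM (adjusted p = 1.47e-05 and 0.00163). JUN, an AP-1 subunit, rose by 2.56 ± 0.28 and IL6ST by 1.20 ± 0.26 (adjusted p = 3.43e-09 and 0.00031). FOSL1, another AP-1 subunit, fell by 1.78 ± 0.35, and NFKB2 fell by 1.46 ± 0.29 on the log2 scale (adjusted p = 0.000153 and 0.000107). IL6ST and NFKBIA (1.32 ± 0.28 in A375, adjusted p = 0.000291) were thus called higher with the drug in both lines, whereas IL6 had no count in A375.

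**Figure D4:**
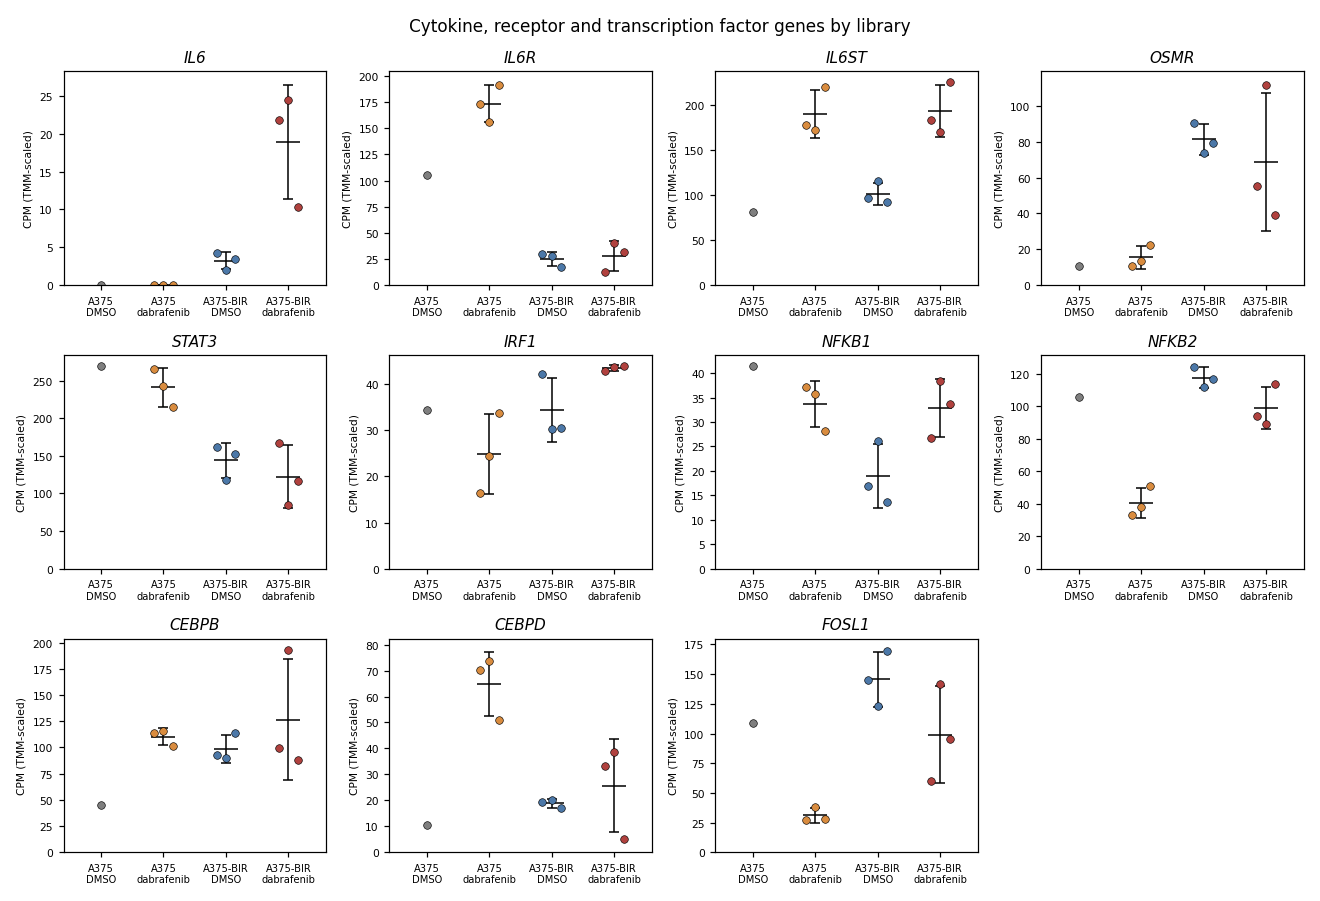
Level in CPM (vertical axis, linear from 0, scaled per gene) of cytokine, receptor and transcription factor genes in the 10 human libraries; points are libraries, horizontal bars the mean and whiskers the SD of groups of 3. IL6 was seen in A375-BIR alone, at 2.02 to 24.5 CPM, and IL6ST was higher with dabrafenib in both lines.

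Across the 10 libraries, the genes whose log2(CPM + 2) followed C3 most closely were TNFAIP2 (Pearson r = 0.96), CLIP3 (0.96) and GATA2-AS1 (0.94). TNFAIP2, a gene induced by tumour necrosis factor, averaged 34.5 CPM in A375 with DMSO, 46.2 with dabrafenib, 84.1 in A375-BIR with DMSO and 184 with dabrafenib. For C1R the closest were FUCA1 (0.91), DCAF10 (0.88) and INF2 (0.87), and for CFI they were KCTD15 (0.89), EPAS1 (0.87) and H6PD (0.86). The 3 sets share no gene. Among the members, C3 and CFB had r = 0.88, C1S and CFI 0.82, and CFB and CD59 -0.97. These values describe 10 libraries from 4 groups, share their depths and group means, and carry no test.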

How the data were processed

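RNA from 12 libraries of A375 and A375-BIR cells was sequenced as 3′ tags (QuantSeq FWD, per the labels' protocols). The authors deposited whole-number read counts for each gene, not normalized. The submitters' processing notes name hg38; aligner, counter, annotation and strand were not given in the sources used here. Of the files, 10 list 33694 human identifiers and 2, of A375 DMSO, list 31053 mouse identifiers and were left out. The comparisons had been written so that A375 DMSO could enter with 1 library. Lines for reads on no gene were left out of all totals, with genes holding 20.4% to 31.1% of the counts listed per human file. Libraries of 1 group differed by more than sampling noise (chi-square over genes, largest p = 2.74e-07 for A375 dabrafenib 1 and 2), and the labels call them biological replicates. Between A375-BIR dabrafenib libraries the chi-square per degree of freedom was largest, at 4.26 to 4.89. It was 1.29 to 1.74 between A375-BIR DMSO libraries and 1.09 to 2.45 between A375 dabrafenib libraries.

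Symbols were found for 32807 identifiers, and positions come from GENCODE 29 (GRCh38). Genes were kept by filterByExpr (minimum count 10), leaving 10236. As the smallest group is a single library, a gene could be kept on a single library where it was high. The TMM-scaled model was edgeR 4.0.16's robust quasi-likelihood fit (R 4.3.3) over 10 libraries and 4 group means, with 6 degrees of freedom left, with the spread of the single A375 DMSO library taken from the other groups. Calls are at 0.05 after Benjamini-Hochberg adjustment across the 10236 genes. Standard errors are the log2 change divided by the square root of F. Ratios of summed counts carry exact 95% binomial intervals, for counting error only, and a floor is 3 counts. The fit was also run on simulated counts. Each gene had the same mean in all groups, except genes set to change, and the spread was fixed. That setting is simpler than these data, so the run is no check of the calls given here. Alternatives were DESeq2 1.42.0, its size factors, no filter, a replicate block, only the libraries compared, no mitochondrially encoded genes and each library left out. Named are all 9 members, the complement genes called in a comparison and 7 more, and of the cytokine and transcription factor list 7 genes plus up to 4 called per comparison with the smallest p, and the 3 genes most like C3, C1R and CFI; some listed genes are not reported here. Members and lists were chosen with earlier results of these data known.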

Additional observations from a re-analysis of the deposited data

Results flagged for a closer look

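For C1R every dabrafenib library lay above the DMSO mean in A375-BIR and below it in A375, and this difference was not tested. The response of A375-BIR minus that of A375 was 4.09 on the log2 scale. CFB met the same criterion with a value of 4.0 (1.99 by DESeq2), also not tested. In A375 it held 1 count with DMSO and 0 with dabrafenib, both under the floor of 3 counts, so that no direction can be read there and the fitted value is no bound.

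Among the other genes listed, the difference between the responses was called by edgeR for 5, beside 22.6% of all genes. It was 3.62 for ITGAX (adjusted p = 0.0134) and 1.19 for NFKB2 (adjusted p = 0.0113), both of which lost the call with DESeq2, NFKB2 also without A375 dabrafenib replicate 1 (1.05). It was -2.07 for CEBPD (adjusted p = 0.00833) and -2.76 for JUN (adjusted p = 9.36e-08), which kept it in the 14 alternatives run for each. FOSL1 gave 1.18 (adjusted p = 0.0414), and lost the call with DESeq2 and in 6 of 9 fits without 1 library. All rest on the A375 DMSO library of the other run, and ITGAX passed the filter on low counts only through that library.

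Data that entered no comparison held signal too: the files of A375 DMSO replicates 2 and 3 hold 224221 and 652439 counts on mouse gene identifiers, although their labels state human.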

How the results depend on the processing

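Among the members, 381 values under the alternatives kept their direction and side of the threshold, or for values with no test stayed within the spread between replicates; 8 described values moved, 2 calls were gained and 2 lost, all 4 of CD55. No member called in the report reversed. In the response of A375, 1 member was called lower, CD55, without a filter on low counts and 1, again CD55, with only the libraries compared. Over all genes, DESeq2 called 2485 in the response of A375 (3948 by edgeR), 94 in that of A375-BIR (252) and 1128 in the difference between the responses (2313). The response of A375-BIR gave 125 with only the libraries compared and 106 to 558 when 1 library was left out: 106, 140 and 107 without DMSO replicate 1, 2 and 3, and 558 without dabrafenib replicate 2. In those fits 3 to 4 members were past the threshold. With the replicate block the counts were 3296 for the response of A375, 4579 and 4292 for the lines in DMSO and in dabrafenib, 239 for the response of A375-BIR and 1750 for the difference, with the same counts of members called; the block ended the calls of SUSD4 (4.88) and IL6R (0.59) in the response of A375, of C1RL between the lines in dabrafenib (1.29) and of NFKBIA between them in DMSO (0.58), and made that of C1QBP in dabrafenib (0.95). Same-numbered libraries shared only a number: in A375-BIR their deviations correlated at 0.07, -0.05 and -0.11, and not every library correlated best with its own number. Without A375 DMSO replicate 1 no comparison with that group can be made. Among the 3 genes most like C3 and CFI, 2 were shared at a pseudocount of 0.5. Low counts limit C3 and CFB in A375 and CFI, C1S and SERPING1 in all groups.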
